A study of Mus musculus with 8 samples.

Results

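Runx1, Ncam1, Gadd45a, Hdac4, Dach2 and Myog are 6 genes of the known response of skeletal muscle fibres to the loss of their nerve. Dach2 is repressed in that response, as described below, so a higher Dach2 level is not by itself a sign of it. Their raw counts of unique molecular identifiers (UMIs, each standing for 1 captured transcript) were followed in all 8 libraries of single nuclei from mouse gastrocnemius muscle, in each library as a whole and within its myonuclei. A nucleus was taken as a myonucleus when Myh1, Myh2, Myh4 and Myh7, the adult myosin heavy chain genes, together held at least 5 UMIs. By this rule 44555 of 64803 retained nuclei were myonuclei, and the 6 genes are 6 of the 21207 symbols named in every library. The 8 libraries came from wild-type C57BL/6 mice in 4 groups of 2: Young (3 months of age), Old (20 months), Running (11 months at the start, with 2 months of treadmill running) and Sedentary (11 months at the start of the same period, without running). Replicate 1 of each group was a 10x Genomics library and replicate 2 came from a second droplet system, so each group holds 1 library of each set. No nerve was cut in any group, so the values describe innervated and ageing muscle. The sources used here do not say how many animals stand behind a library, and p-values measure only the spread between libraries.

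As background, the nerve represses synaptic genes along most of a muscle fibre and permits them in the few nuclei beneath the neuromuscular junction. After denervation the histone deacetylase Hdac4 accumulates and represses Dach2, a repressor of Myog, and the freed Myog, a basic helix-loop-helix factor, raises acetylcholine receptor subunits and atrophy ligases. Ncam1 is a cell adhesion molecule kept at the junction and in muscle stem cells, Runx1 is a transcription factor that protects denervated fibres from wasting and also acts in blood cells, and Gadd45a is a stress protein that remodels myonuclei during atrophy.

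In the GRCm38 genome, Runx1 lay at chr16:92601466-92826149 on the minus strand, Ncam1 at chr9:49502136-49798925 on the minus strand and Hdac4 at chr1:91928779-92195699 on the minus strand. Dach2 lay at chrX:113297510-113836386 on the plus strand, Myog at chr1:134289989-134292548 on the plus strand and Gadd45a at chr6:67035096-67037457 on the minus strand. Runx1, Ncam1, Hdac4 and Dach2 thus span 225 to 539 kb, whereas Myog and Gadd45a span 2.56 and 2.36 kb. The 250 bases before the transcription start are shown for Myog and Dach2, the target and the repressor of the cascade, because their fibre type patterns below ran in opposite directions. They are RefSeq windows of GRCm38.p6 on the plus strand, at chr1:134289754-134290003 for Myog and chrX:113297260-113297509 for Dach2. Capitals mark the E-box CANNTG, the letters that basic helix-loop-helix factors read, searched on both strands.
Myog: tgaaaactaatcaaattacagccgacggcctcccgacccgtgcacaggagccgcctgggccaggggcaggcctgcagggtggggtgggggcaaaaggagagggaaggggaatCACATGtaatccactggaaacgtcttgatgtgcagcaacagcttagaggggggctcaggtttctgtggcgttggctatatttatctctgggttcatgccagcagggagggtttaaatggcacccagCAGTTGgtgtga
Dach2: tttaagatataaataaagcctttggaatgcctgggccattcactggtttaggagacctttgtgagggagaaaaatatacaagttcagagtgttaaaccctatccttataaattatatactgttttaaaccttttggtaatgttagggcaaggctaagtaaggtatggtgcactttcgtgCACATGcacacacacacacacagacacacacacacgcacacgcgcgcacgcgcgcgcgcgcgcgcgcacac
The Myog window holds 2 E-boxes and this Dach2 window 1, whereas a second RefSeq start of Dach2 (chrX:113298006-113298255, not shown) has 0. An E-box occurs in 66.2% of 32851 such windows, so its presence is common. RefSeq rows were found for 5 of the 6 genes, with none for Ncam1.

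The deposited 10x libraries held 23390969 to 44454427 UMIs each, and those of the second set 4839878 to 9278034. Myonuclei made up 51.1 to 68.3% of nuclei in the 10x set, but 94.9 to 99.9% in 3 libraries of the second set and 66.6% in Old replicate 2. In Old and Sedentary replicate 2 the nuclei under the limit still carried myosin at 0.269 and 0.403% of their UMIs, against 0.0339 to 0.122% in the 10x set. The limit thus separated nuclei less well in these 2 libraries. Young and Running replicate 2 had only 4 nuclei each under the limit, at 0.181 and 0.364%. In Old replicate 2, 37.2% of nuclei lay near the limit, at 3 to 6 myosin UMIs, as did 23.5% in Sedentary replicate 1. Genes of at least 100 kb took 40.7% of myonuclear UMIs in Old replicate 2 and 34.7 to 36.2% in the other second-set libraries. Because 4 of the 6 genes are that long, several results that rest on this library are also given without it. Pairs of 10x libraries shared 30 to 46 nucleus barcodes, and the names in the second set are running indices that cannot be compared.

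Runx1 was lower in myonuclei than in the remaining nuclei of the same libraries, and Hdac4 and Myog were called higher with edgeR but not with DESeq2. In this comparison 60.2% of 20574 genes passed the test (25% higher, 35.2% lower), and 2 of the 6 genes passed as higher and 1 as lower. Hdac4 reached 373, 579, 398 and 452 UMIs per 1000000 UMIs of the summed nuclei (CPM) in the myonuclei of the Old, Young, Running and Sedentary 10x libraries, and 164, 218, 162 and 292 CPM in their other nuclei. In the second set it ran the other way, at 212 against 235 CPM in Old and 221 against 269 CPM in Sedentary. It was thus higher in the myonuclei of the 4 10x libraries and lower in these 2, and the fit over all libraries gave 1.33 on the log2 scale (standard error, SE, 0.36, adjusted p = 0.0053). Myog stood at 3.95, 6.35, 2.55 and 2.58 CPM in the myonuclei of the same libraries, and at 2.35, 0.898, 1.23 and 2.90 CPM outside them. Its difference was 1.48 (SE 0.39, adjusted p = 0.0047), although the order was the reverse in Sedentary replicate 1 and in Sedentary replicate 2 (14.6 against 23.4 CPM, on 4 UMIs outside).

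Runx1 was read mostly outside the fibres, with 34.1, 17.1, 15.8 and 24.3 CPM in the myonuclei of the Old, Young, Running and Sedentary 10x libraries against 177, 206, 136 and 113 CPM in the other nuclei. The difference was -1.60 (SE 0.31, adjusted p = 0.000863), and only 19.7 to 35.4% of the Runx1 UMIs of a 10x library lay in myonuclei. Ncam1 stood at 52.0, 25.8, 20.1 and 52.2 CPM in myonuclei and at 104, 197, 98.4 and 126 CPM outside. Its difference of -0.75 (SE 0.32, adjusted p = 0.051) missed the threshold over all libraries and passed with the 10x libraries alone (-1.13, adjusted p = 0.0088). For Gadd45a the difference was 0.25 and for Dach2 0.02, and neither passed. This comparison depends on the scaling of the libraries. With DESeq2 the median over all genes moved from -0.13 to -1.25, and 4.44% of the calls were higher in place of 41.5%. Hdac4 then differed by 0.40 (adjusted p = 0.15) and Myog by 0.22 (adjusted p = 0.68), so both calls were lost, while Runx1 stayed lower (-2.42) and Ncam1 (-1.54) and Dach2 (-0.89, adjusted p = 0.020) were called lower. Gadd45a (-0.70) and Dach2 changed sign. Relative to the median of all genes, Hdac4 stood at 1.46 and 1.65 and Myog at 1.61 and 1.47 on the 2 scalings, and Runx1 at -1.47 and -1.17. Running and Young replicate 2 had almost no other nuclei to compare.

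Of the 29 listed denervation genes, 12 were higher in myonuclei and 3 lower with edgeR, on the scaling that moved with DESeq2 as above. Over all genes 25% were higher and 35.2% lower. They included 5 of the 7 myogenic and deacetylase genes, among them Myf6 (2.13), Mef2c (2.12), Myod1 (1.61) and Hdac5 (1.19), and 3 of the 6 receptor and synapse genes, among them Chrne (2.35) and Chrnb1 (1.18). Among the lower ones was Dach1, a relative of Dach2 (-1.65). The list median was 0.41 beside -0.13 over all genes.

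The nuclei outside the fibres were sorted by marker genes, which showed where each transcript lay in the 10x libraries. Runx1 was highest in T cell-like nuclei (1613 CPM, 94 nuclei of 2 libraries) and macrophage-like nuclei (1212 ± 300 CPM, SD, n = 4), 2 blood lineages. Tenocyte-like nuclei followed at 407 CPM, on 28 UMIs in 28 nuclei of 1 library. Muscle stem cell-like nuclei came next at 305 ± 29.8 CPM (n = 4), above the highest of the 4 Type IIb values of 30.7 CPM. Type IIx, slow, Type IIa and Type IIb myonuclei had means between 20.2 and 35.0 CPM, with overlapping ranges over libraries. Within each 10x library, however, Type IIx lay above Type IIb, a comparison given with the fibre types below. Endothelial-like nuclei were lowest, at 11.4 ± 10.96 CPM (n = 4). Whole-library Runx1 therefore reads leukocyte-like nuclei as well as fibres, and in a summed library fewer nuclei of a type cannot be told apart from less RNA per nucleus.

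Ncam1 was highest in neuromuscular junction-like myonuclei (1755 ± 148 CPM, SD, n = 4) and next in muscle stem cell-like nuclei (1307 ± 176 CPM, n = 4), with ranges that did not overlap. Slow myonuclei stood at 236 CPM in 2 libraries, and Type IIb myonuclei at 13.5 ± 5.75 CPM (n = 4). T cell-like nuclei, so high in Runx1, gave 1 UMI of Ncam1 in 94 nuclei.

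Hdac4 was the most evenly spread of the 6, from 551 ± 110 CPM in Type IIa myonuclei to 125 ± 24.3 CPM in endothelial-like nuclei (SD, n = 4 each). Junction-like, Type IIx, Type IIb and Type IIa myonuclei had means of 436 to 551 CPM and overlapping ranges over libraries. Within each 10x library, however, Type IIa lay above Type IIb, for example at 431 against 364 CPM in Old and 547 against 394 CPM in Running. The edgeR fit over both library sets gave 0.04 (adjusted p = 0.91) for this pair. Dach2 led in T cell-like nuclei at 641 CPM, but this rested on 115 UMIs in Old replicate 1, where 11 of 71 nuclei held one, and on 21 UMIs in 23 nuclei of Young replicate 1. Among myonuclei Dach2 ran from 162 CPM in slow through 69.4 ± 26.7 in Type IIa and 53.4 ± 17.5 in Type IIx to 7.60 CPM in Type IIb. Myog was highest in junction-like nuclei (13.5 ± 3.87 CPM, n = 4), on 12 UMIs. No Myog UMI was read in 534 muscle stem cell-like nuclei. Gadd45a showed no order, with means of 0 to 19.9 CPM and 10 UMIs behind the highest of them.

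Junction-like myonuclei were those with at least 3 UMIs from at least 2 of Ano4, Col4a3, Chrne, Ache, Colq and Etv5, genes of the synaptic nucleus that include none of the 6. In them Ncam1 was far higher than in the other myonuclei of the same library, and no other of the 6 genes passed the test. Ncam1 stood at 1921, 1822, 1582 and 1695 CPM in the junction-like nuclei of Old, Young, Running and Sedentary replicate 1, and at 33.0, 12.6, 9.30 and 34.6 CPM in their other myonuclei. In Young, Running and Sedentary replicate 2 it stood at 1158, 1373 and 2128 CPM against 44.8, 21.03 and 25.4 CPM. The values of the 2 kinds of nuclei did not overlap across the 7 libraries, and the difference was 5.91 (SE 0.13), or 59.97-fold, where 12.1% of 14403 genes passed (4.38% higher, 7.73% lower). Of all calls, 36.2% were higher, and 63.9% with DESeq2, where Ncam1 differed by 6.11.

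**Figure D1:**
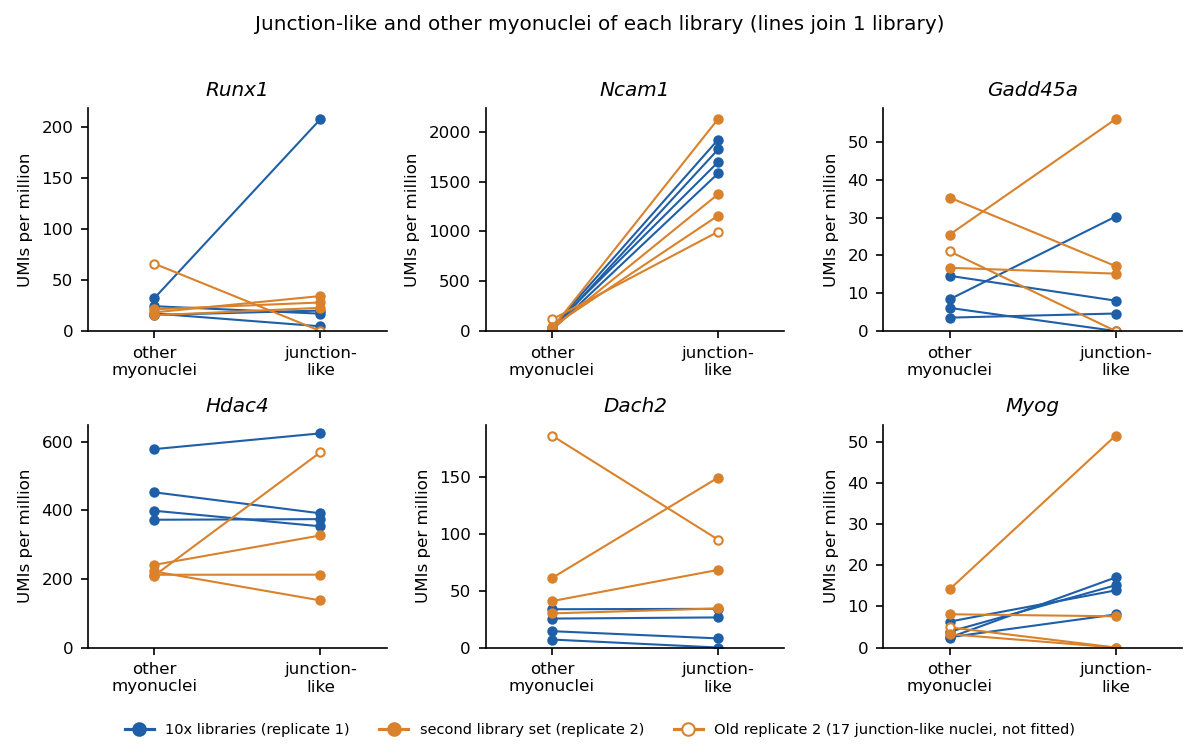
Level of each of the 6 genes in junction-like and other myonuclei, in CPM, with 1 line per library (blue, 10x libraries; orange, second set; open symbols, Old replicate 2, which had 17 junction-like nuclei and was not fitted). Ncam1 stood at 9.30 to 116 CPM outside the junction and at 996 to 2128 CPM at it over the 8 libraries, and the lines of the other 5 genes run in both directions.

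The 45 to 61 junction-like nuclei of a library were only 0.620 to 1.44% of its myonuclei, yet they held 23.6 to 54.5% of myonuclear Ncam1 UMIs in the 7 fitted libraries. A UMI of Ncam1 was read in 51.9 to 73.3% of junction-like nuclei and in 1.80 to 6.18% of other myonuclei. Old replicate 2 differed, with 17 junction-like nuclei (996 CPM), 4.96% of its myonuclear Ncam1 UMIs in them and 116 CPM in its other myonuclei. The Ncam1 level of this library thus came almost wholly from nuclei that did not pass the junction gate. Most Ncam1 UMIs also lay outside the gate in Young replicate 2, Sedentary replicate 1 and Old replicate 1, where junction-like nuclei held 23.6, 34.3 and 37.1%.

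For Runx1 the junction difference was 0.63 (adjusted p = 0.22) and 1 library set its sign. Old replicate 1 gave 208 CPM from 55 UMIs in 49 junction-like nuclei, of which 34 UMIs lay in 1 nucleus, and without this library the difference was -0.27, while without Young replicate 1 it was 0.89 (adjusted p = 0.046). Myog stood at 15.1, 13.9, 8.03 and 17.01 CPM in the junction-like nuclei of the Old, Young, Running and Sedentary 10x libraries, on 2 to 4 UMIs each, and at 3.84, 6.29, 2.51 and 2.42 CPM in their other myonuclei. It was higher at the junction in each of these 4, but the difference over 7 libraries (1.23, adjusted p = 0.10) did not pass. Hdac4 differed by -0.29 (adjusted p = 0.14), Gadd45a by 0.12 and Dach2 by 0.07. At an equal depth of 500 UMIs per nucleus Hdac4 was called lower at the junction (-0.75), as it was without a filter on low counts (-0.41) or without Sedentary replicate 2 (-0.39).

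Of 27 tested genes from a list of 29 further denervation genes, 6 were higher at the junction and 3 lower, where 4.38% of all genes were higher and 7.73% lower. The acetylcholine receptor subunits Chrnd (6.62, SE 0.47), Chrna1 (5.05, SE 0.35) and Chrnb1 (1.75, SE 0.22) were higher, as was Musk, the kinase that organises the synapse (3.59, SE 0.13). Rrad, a small G protein of the calcium channel, was higher as well (2.02, SE 0.56, adjusted p = 0.0037). The sixth, Chrne, was used to choose the nuclei and is no finding. The lower ones were the atrophy ligases Fbxo32 (-1.32) and Trim63 (-0.60) and the myogenic factor Mef2c (-0.77). The median of the tested list was -0.05 beside -0.20 over all genes.

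Myonuclei were next divided by fibre type, taking as type the myosin gene that held at least 60% of the UMIs of the 4. Dach2 was higher in Type IIx, Type IIa and slow than in Type IIb myonuclei, whereas Myog and Gadd45a were lower in Type IIa. In the 10x libraries Dach2 stood at 7.26, 5.45, 5.60 and 12.02 CPM in Type IIb myonuclei of the Old, Young, Running and Sedentary groups, at 78.6, 41.2, 56.9 and 37.5 CPM in Type IIx, and at 99.0, 35.1, 69.7 and 72.3 CPM in Type IIa. Slow myonuclei were numerous enough in the Old (137 nuclei) and Sedentary (332 nuclei) libraries, at 164 and 151 CPM. Type IIb was the lowest in each 10x library. In the second set Dach2 stood at 187, 48.6 and 21.7 CPM in Type IIb, at 235, 76.3 and 93.1 CPM in Type IIx and at 179, 109 and 149 CPM in Type IIa of the Old, Young and Sedentary groups. Here Type IIb was not below Type IIa in Old replicate 2. Young replicate 2 had 42 slow nuclei at 93.7 CPM, and Running replicate 2 had Type IIb nuclei only, at 37.9 CPM.

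The Dach2 differences from Type IIb were 1.82 for Type IIx (SE 0.30), 2.13 for Type IIa (SE 0.31) and 2.96 for slow myonuclei (SE 0.40), with 9.57, 17.8 and 13.3% of 18199 genes passing in the 3 comparisons (3.93, 7.13 and 5.91% higher, and 5.64, 10.6 and 7.36% lower). Of all calls, 41.04, 40.1 and 44.5% were higher, and 50.9, 53.3 and 63.7% with DESeq2, where Dach2 differed by 1.85, 2.20 and 3.04. With the 10x libraries alone its differences were 2.81, 3.24 and 4.11, and without junction-like nuclei 1.77, 2.08 and 2.86. The separation was therefore wider in the deeper set.

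**Figure D2:**
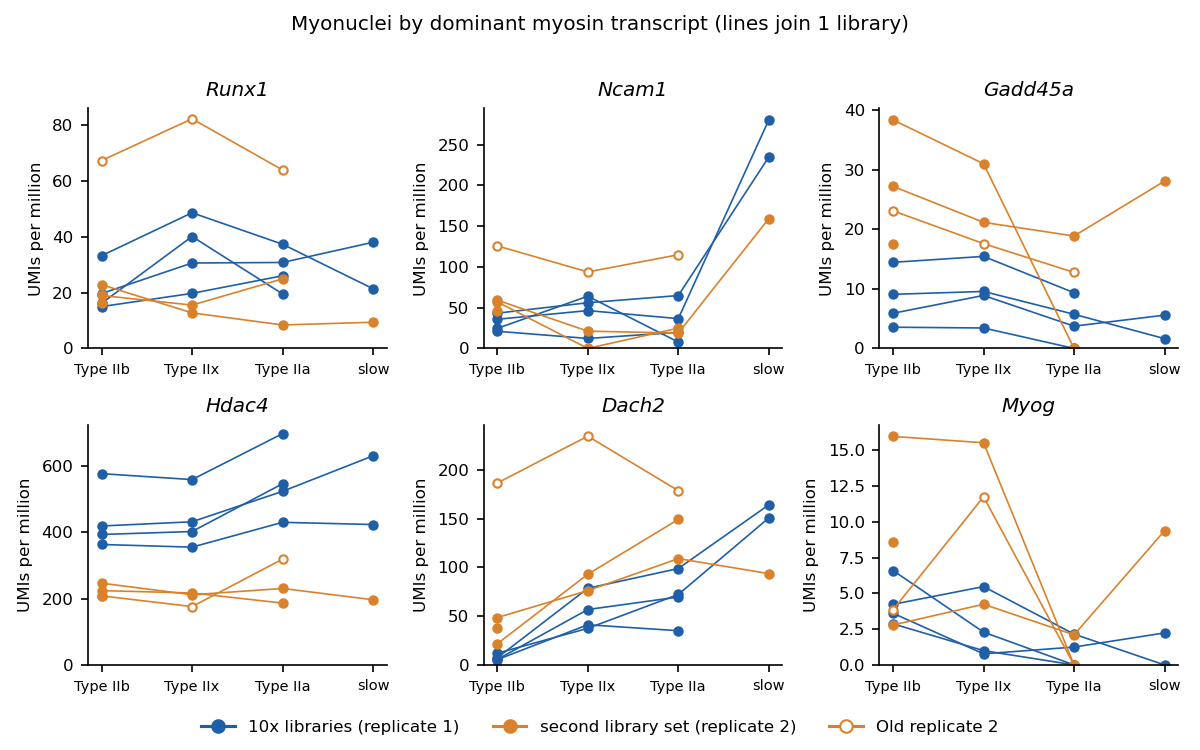
Level of each of the 6 genes in Type IIb, Type IIx, Type IIa and slow myonuclei, in CPM, with 1 line per library (blue, 10x; orange, second set; open symbols, Old replicate 2). Dach2 climbs from 5.45 to 12.02 in Type IIb to 151 and 164 in slow myonuclei of the 10x libraries, while Old replicate 2 starts at 187.

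Ncam1 was higher in slow than in Type IIb myonuclei. It stood at 235, 280 and 159 CPM in the slow nuclei of Old replicate 1, Sedentary replicate 1 and Young replicate 2, against 43.3, 35.8 and 59.2 CPM in their Type IIb nuclei. The difference was 2.10 (SE 0.29) in 3 of 3 libraries, and it was 2.90 once junction-like nuclei were left out.

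Myog stood at 2.15, 0, 0 and 1.25 CPM in Type IIa myonuclei of the Old, Young, Running and Sedentary 10x libraries, on 0 to 6 UMIs, and at 4.23, 6.59, 2.87 and 3.61 CPM in their Type IIb myonuclei. It was lower in Type IIa in each library, by 1.67 on the log2 scale in the fit (log2 difference -1.67, SE 0.51, adjusted p = 0.014), but DESeq2 did not call it (adjusted p = 0.070). Gadd45a stood at 5.74, 0, 9.36 and 3.74 CPM in Type IIa against 9.09, 3.56, 14.5 and 5.91 CPM in Type IIb of the same libraries. Its difference was -0.89 (SE 0.27, adjusted p = 0.014), and -0.72 (adjusted p = 0.059) with the 10x libraries alone. Dach2 and Myog thus differed in opposite directions between Type IIa and Type IIb, each in its own test. Runx1 in Type IIx differed from Type IIb by 0.37 (adjusted p = 0.26), passed with the 10x libraries alone (0.63, adjusted p = 0.017) and was -0.61 at 500 UMIs per nucleus. Hdac4 passed in no fibre type comparison.

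Of 28 listed genes tested between fibre types, 4 were higher and 5 lower in Type IIx, 2 higher and 3 lower in Type IIa, and 6 higher and 3 lower in slow myonuclei. Over all genes 3.93, 7.13 and 5.91% were higher and 5.64, 10.6 and 7.36% lower, so the Type IIa counts were near the share of all genes. Kcnn3, a calcium-activated potassium channel that reappears in denervated muscle, was higher in Type IIx, Type IIa and slow myonuclei by 1.89, 2.60 and 3.10. Ampd3, an AMP deaminase, was higher by 0.77, 1.23 and 1.81. The list medians were 0.10, 0.05 and -0.004 beside -0.14, -0.16 and -0.20 over all genes. Without Sedentary replicate 1, only 1 listed gene was higher in Type IIx and 4 in slow myonuclei, and the medians were -0.009, -0.27 and -0.34 beside -0.25, -0.29 and -0.50.
Fbxo32 (-0.74, -0.51 and -0.80 in the same order), Trim63 (-0.71, -0.85 and -1.85) and Mef2c (-0.51, -0.44 and -0.61) were lower in all 3. In Type IIx, Fbxo21 (0.83) and Rrad (1.25) were also higher, and Musk (-0.63) and Chrnb1 (-0.74) lower. Slow myonuclei were higher in Sln, an inhibitor of the calcium pump (4.19), in the receptor subunits Chrna1 (2.59) and Chrnd (2.35) and in the deacetylase Hdac9 (0.80).

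Between groups, no gene passed the test in myonuclei. Of 19448 genes, 0% were called in Old against Young and 0% in Running against Sedentary with edgeR, while 554 and 100 had an unadjusted p under 0.05. DESeq2 called 1 and 0. For Old against Young, simulated counts with the spread of these libraries (dispersion 0.238) gave calls for 0% of genes changed 2-fold, 1.52% of those changed 4-fold and 18.2% of those changed 8-fold. With the same libraries and a dispersion of 0.02, 55.2% of 2-fold and 100% of 4-fold changes were called. At the spread measured here differences of the size below were mostly not detectable, and the values are given as measured. Myonuclei that also passed the marker gate of another cell type stayed in the sums and in the pair counts below. They were 13.9, 5.95, 8.77 and 3.43% of myonuclei in Old, Young, Running and Sedentary replicate 1. In replicate 2 they were 4.78, 5.04, 3.39 and 2.04% in the same order.

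Runx1 stood at 34.1 CPM (896 UMIs) in the myonuclei of Old replicate 1 and 65.7 CPM (229 UMIs) in Old replicate 2, against 17.1 CPM (506 UMIs) and 21.4 CPM (194 UMIs) in the Young libraries. The Old value was 1.99 times the Young one within the 10x set and 3.07 times within the second set. The difference in the fit was 0.88 (SE 0.39, adjusted p = 0.74), and it was 0.66 without Old replicate 2. In whole libraries the Old to Young ratio was 1.25 for the 10x pair and 3.62 for the second-set pair.

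Ncam1 stood at 52.0 and 121 CPM in the Old myonuclei (1368 and 423 UMIs) and at 25.8 and 57.9 CPM in the Young (764 and 525 UMIs). The values overlap across sets, with ratios of 2.02 and 2.09 within them, and the difference was 0.60 (SE 0.40, adjusted p = 0.74). This difference lay below both log2 ratios (0.98 and 1.05, with 1 CPM added to each value). The fitted values for Runx1 and Dach2 also lay below both of theirs, and that for Hdac4 was more negative than both. CPM are not scaled between libraries as the fit is, so a ratio of CPM and a fitted difference are not the same measure. Over whole libraries Ncam1 was nearly level in the 10x set, at 69.1 CPM in Old and 69.2 CPM in Young.

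Dach2 stood at 25.5 and 186 CPM in Old myonuclei (670 and 648 UMIs) and at 6.96 and 62.1 CPM in Young (206 and 563 UMIs), ratios of 3.66 and 2.99. The difference was 1.20 (SE 0.65, adjusted p = 0.74) and 0.72 without Old replicate 2. Within Type IIb myonuclei the ratio was 1.33 in the 10x set (7.26 against 5.45 CPM) and 3.84 in the second (187 against 48.6 CPM). The fit over Type IIb myonuclei gave 0.98 (adjusted p = 0.74), and the part of the fibre type mix in the difference was not tested.

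Hdac4 was the only one of the 6 lower in Old in both sets, at 373 and 212 CPM against 579 and 242 CPM, a difference of -0.85 (SE 0.37, adjusted p = 0.74). Gadd45a (8.59 and 20.9 CPM in Old, 3.55 and 25.8 CPM in Young) and Myog (3.95 and 4.88 CPM in Old, 6.35 and 3.20 CPM in Young) ran in opposite directions in the 2 sets. Runx1, Ncam1 and Dach2 were higher in Old in both sets, which held for 47.1% of 20807 genes with at least 10 UMIs, and Hdac4 was lower in both, which held for 10.6%. In the fit the median long gene was higher in Old. The median difference in myonuclei was 0.61 over 2743 genes of at least 100 kb and -0.14 over 4120 genes under 10 kb. The long genes held 44.8% of myonuclear UMIs in Old replicate 1 and 48.5% in Young replicate 1. In replicate 2 they held 40.7 and 36.1%, so this share ran in opposite directions in the 2 sets. The medians were not taken without Old replicate 2. The part of gene length in the values of Runx1, Ncam1 and Dach2 was not tested.

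Between Running and Sedentary, Runx1 stood at 15.8 and 15.6 CPM in Running myonuclei (570 and 114 UMIs) and at 24.3 and 18.5 CPM in Sedentary (405 and 85 UMIs). The difference was -0.53 (adjusted p = 1). Ncam1 stood at 20.1 and 45.4 CPM against 52.2 and 52.0 CPM, and differed by -0.88 (SE 0.41, adjusted p = 1). Ncam1 was mostly lower in the 10x pair, and without Sedentary replicate 1 its difference was -0.37.
Dach2 was lower in Running in the 10x set (14.3 against 33.7 CPM) and higher in the second (41.3 against 30.1 CPM). Its difference of -0.74 became 0.80 without Sedentary replicate 1. Gadd45a also ran in opposite directions (14.6 and 16.7 CPM in Running, 6.05 and 35.1 CPM in Sedentary), while Hdac4 stood at 398 and 212 CPM against 452 and 221 CPM and Myog at 2.55 and 8.07 CPM against 2.58 and 14.6 CPM. Thus 4 of the 6 were lower in Running in both sets, a direction shared by 23.3% of 20081 genes. The median difference was -0.26 over the long genes and 0.23 over the short ones, and 3 of the 4 are long.

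**Figure D3:**
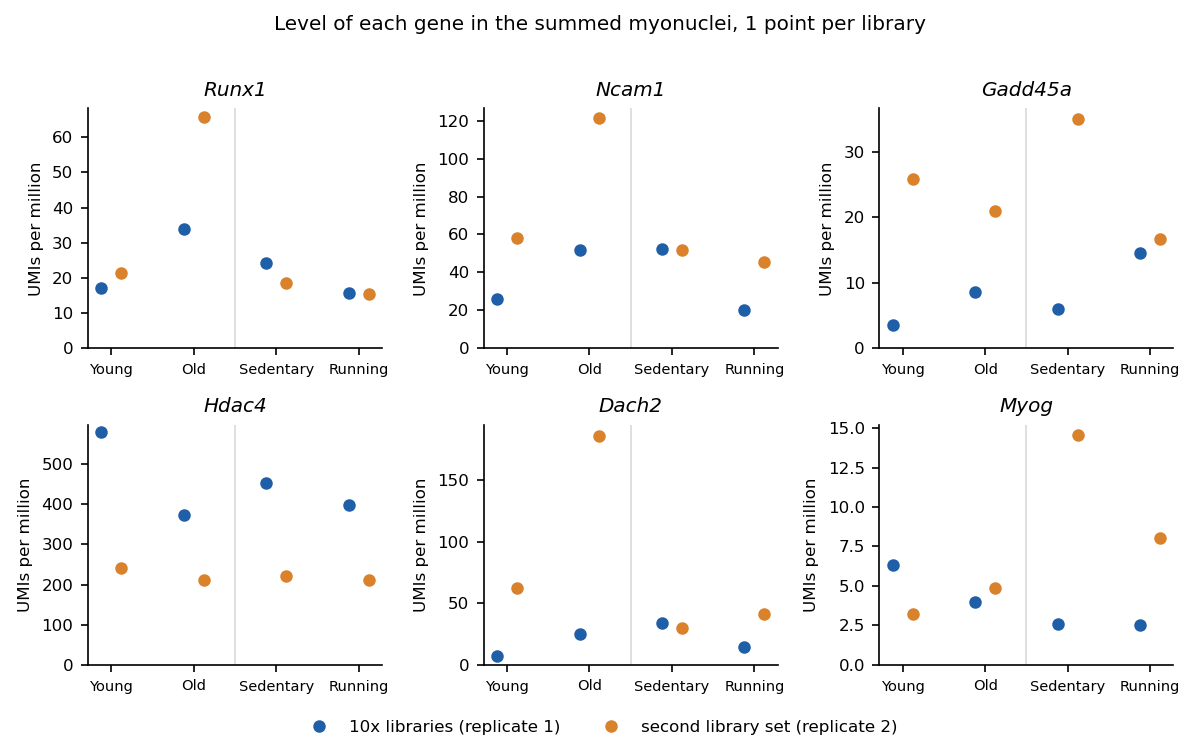
Level of each of the 6 genes in the summed myonuclei of every library, in CPM (blue, 10x libraries; orange, second library set; 1 point per library). Within each colour Runx1, Ncam1 and Dach2 are higher in Old than in Young, and Hdac4 is lower, with the second-set Old library at 65.7, 121, 186 and 212 CPM. CPM are not scaled between libraries as the fit is.

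Over whole libraries 0% of 20309 genes were called in either comparison, with 556 and 98 at an unadjusted p under 0.05 and none called by DESeq2. The Old against Young differences were 0.67 for Runx1, 0.16 for Ncam1, -0.02 for Gadd45a, -0.83 for Hdac4, 1.22 for Dach2 and -0.58 for Myog. Against Sedentary, Running differed by -0.35, -0.65, -0.26, -0.11, -0.90 and -0.69 in the same order.

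The 29 listed genes gave no called gene in any of these group comparisons. In Old against Young myonuclei their median was 0.01 beside 0.10 over all genes, and 0.48 beside -0.05 without Old replicate 2. The acetylcholine receptor and synapse group had 5 of 6 genes above 0 (median 0.48), the other denervation-induced genes 7 of 10 (median 0.54), the myogenic and deacetylase group 2 of 7 (median -0.43) and the atrophy ligases 1 of 6 (median -0.25). Among the listed genes with the smallest p were Mef2c (-1.29) and Myod1, a myogenic factor (-1.27), each with an adjusted p of 0.74.
In Running against Sedentary myonuclei 6 of 29 listed genes were above 0, with a median of -0.29 beside -0.06 over all genes. None of the 10 other denervation-induced genes (median -0.80) and 1 of 6 receptor and synapse genes (median -0.50) was above 0. Musk (-1.33), Rrad (-1.74) and Kcnn3 (-1.22) had the smallest p, each with an adjusted p of 1.

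At an equal depth of 500 UMIs per nucleus, Hdac4 was read in 9.00 to 23.9% of myonuclei and each of the other 5 genes in at most 8.75%. Runx1 was read in 1.44% of Old replicate 1 (95% Wilson interval 1.17 to 1.77%), 0.561% of Young, 0.733% of Running and 1.11% of Sedentary in the 10x set, and in 2.96, 1.11, 0.568 and 0.672% in the second. Endothelial-like nuclei, taken as the level that free RNA gives, were at 0 to 0.571% for Runx1 and 2.89 to 5.46% for Hdac4, a gene that most cells use, in the 10x libraries. The Runx1 share of Young replicate 1 lay within the endothelial-like range, whose upper end was 1 of 175 nuclei. Those of the other 10x libraries lay above it. The myonuclear Hdac4 shares of 17.2 to 23.9% in the 10x set stood above the endothelial-like 2.89 to 5.46%. For Ncam1 the 10x shares of 0.599 to 2.03% lay within the endothelial-like range of 0.513 to 2.29%, which ran from 1 of 195 to 4 of 175 nuclei. At this depth the share over all myonuclei thus did not set Ncam1 apart from that range. Likewise Dach2 (0.299 to 1.68% against 0.413 to 1.71%), Gadd45a (0.150 to 0.891% against 0 to 1.24%) and Myog (0.121 to 0.437% against 0 to 0.571%) did not exceed the highest endothelial-like share. For Myog that share was 1 of 175 nuclei. These shares cover all myonuclei of the 10x set, whereas Ncam1 differed between junction-like and other myonuclei and Dach2 between fibre types. They therefore do not show that these genes were only background. With all UMIs the myonuclear shares were 18.5 to 77.7% for Hdac4, 1.74 to 6.93% for Runx1, 2.13 to 9.85% for Ncam1, 1.58 to 15.95% for Dach2, 1.22 to 5.38% for Gadd45a and 0.409 to 2.25% for Myog, and for Hdac4 they were 63.3 to 77.7% in the deeper 10x libraries against 18.5 to 33.2% in the second set. The interval covers counting error only.

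Pairs of the 6 genes are given as 2 kinds in myonuclei, a division that was not planned and that follows the ratios themselves. Runx1, Ncam1, Gadd45a and Myog were read in the same nuclei more often than the product of their shares gives. Pairs with Hdac4 or Dach2 stood nearer to that product at 1000 UMIs, and some stood above it at the other depths. With each nucleus thinned to 1000 UMIs, which left out 1950 myonuclei of Old replicate 2, 2315 of Sedentary replicate 2 and 0 to 271 of the others, the 6 pairs among the first 4 genes shared 151 nuclei over the 8 libraries where the products sum to 52.3, and each pair stood at 2.56 to 3.53 times its product. The 9 pairs with Hdac4 or Dach2 shared 1012 where 991 would be expected, with pair ratios of 0.70 to 1.08. At 500 UMIs the ranges were 1.90 to 5.02 and 0.91 to 1.62, and with all UMIs 1.79 to 2.92 and 0.85 to 1.44. The ranges at 500 and 1000 UMIs compare nuclei of equal depth. The ratio of a pair cannot exceed 1 divided by the larger of its 2 shares. Hdac4 was read in 28.8 to 41.1% of 10x myonuclei at 1000 UMIs and in 63.3 to 77.7% with all UMIs. Its pairs thus could not rise as far as those of the sparse genes, and the gap between the 2 kinds partly follows from this limit.
Runx1 and Ncam1 shared 62 nuclei of Old replicate 1 where 21.7 would be expected with all UMIs, and their ratio was 1.29 to 4.57 in the 8 libraries. Without Old replicate 1 the 6 pairs ran from 2.18 to 3.76 at 1000 UMIs. Without Sedentary replicate 2 the pair of Gadd45a and Myog fell to 0.68, so its ratio rested on that library. The counts are small. At 1000 UMIs, Runx1 and Ncam1 shared 61 nuclei over the 8 libraries where 21.7 would be expected, and Gadd45a and Myog 8 where 2.27 would be. Nuclei of 1 library share their source, and these ratios are descriptions.

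**Figure D4:**
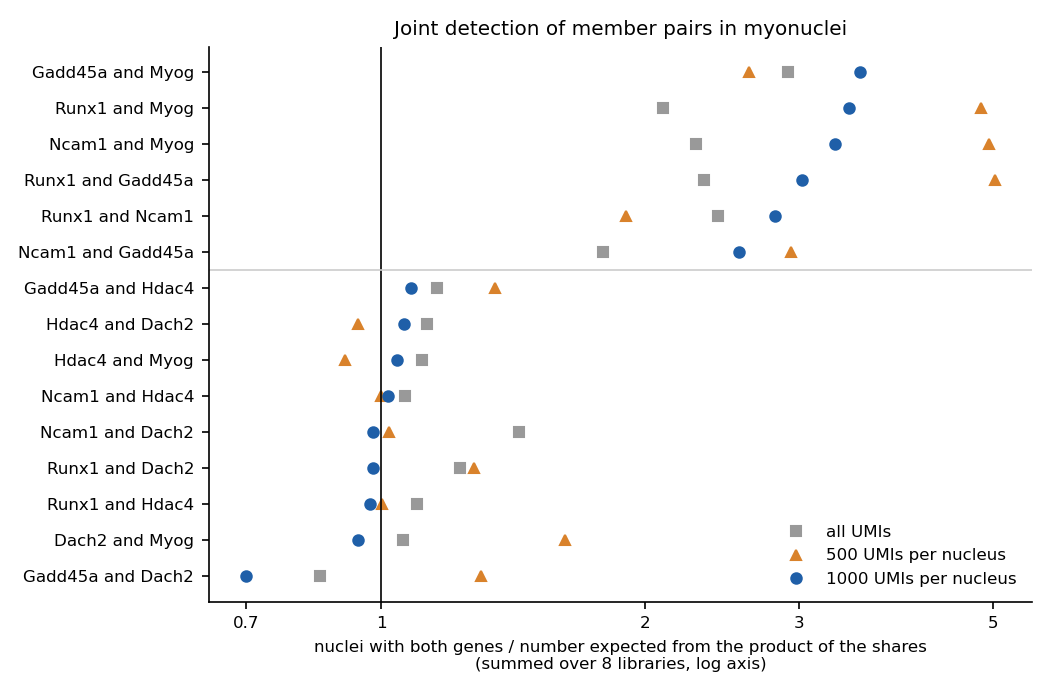
Number of myonuclei in which both genes of a pair were read, divided by the number the product of their shares gives, summed over 8 libraries (log axis; squares, all UMIs; triangles, 500 UMIs per nucleus; circles, 1000 UMIs per nucleus). The 6 pairs among Runx1, Ncam1, Gadd45a and Myog lie at 2.56 to 3.53 for 1000 UMIs, to the right of the 9 pairs with Hdac4 or Dach2 at 0.70 to 1.08. The ratio is limited by the share of the commoner gene, which holds the pairs with Hdac4 low.

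The joint nuclei were then looked at directly, a choice made after the pair counts were seen. At least 3 of the 5 sparse genes (all but Hdac4) were read in 25 myonuclei of Old replicate 1 (0.419%), 5 of Young (0.0624%), 8 of Running (0.0902%) and 11 of Sedentary (0.191%) replicate 1. In the second set there were 10 (0.315%), 6 (0.133%), 4 (0.0947%) and 8 (0.199%) in the same order. The Old share was thus above the Young and the Running share below the Sedentary in both sets. The 25 nuclei of Old replicate 1 were deeper, at a median of 7772 UMIs against 3910 in the rest. At 500 UMIs per nucleus, at least 2 of the 5 genes were read in 0.218% of myonuclei in Old and 0.0374% in Young replicate 1, and in 1.29 and 0.266% of replicate 2. Running and Sedentary gave 0.0902 and 0.173% in replicate 1 and 0.166 and 0.274% in replicate 2, so by this looser criterion the order was the same at equal depth. Such joint shares also rise with the shares of the single genes. At this depth Dach2 was read in 8.75% of Old and 2.84% of Young replicate 2, while Gadd45a ran the other way (0.82 and 1.15%). The part of the single-gene shares in the order was not tested. At least 3 of the 5 genes at 500 UMIs were read in 0 to 3 nuclei of a library, too few to compare.

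In Old replicate 1, several listed denervation genes, which had no part in choosing the nuclei, stood higher in the 25 nuclei. Of 20 listed genes with at least 100 UMIs in the remaining myonuclei, a limit that does not use the 25, 9 stood at least 3-fold above them, against 3.93% of 11337 genes, and the median ratio was 2.04 beside 0.94 over all genes. Rrad stood at 268 against 4.22 CPM, and the receptor subunit Chrna1 at 130 against 4.26 CPM. The other 7 were Chrne (56.2 against 7.94 CPM, in 2 nuclei), Chrnb1 (164 against 39.2 CPM), Musk (406 against 94.7 CPM), Myod1 (47.5 against 5.25 CPM), Kcnn3 (112 against 14.9 CPM), Ampd3 (121 against 28.2 CPM) and the ligase Fbxo30 (99.4 against 21.8 CPM).
Fbxo32 ran the other way (514 against 1217 CPM), and Mef2c (3573 against 3373 CPM) and Trim63 (786 against 545 CPM) differed by less than that. Among genes under that limit, Cdkn1a, a cell cycle inhibitor, had 29 UMIs in 7 of the 25 nuclei and 50 in all the rest, and Chrng, the subunit of the fetal receptor, 7 UMIs in 3 nuclei and 15 in the rest. Of the 25 nuclei, 4 passed the marker gate of another cell type and 3 the junction gate. In the 19 that passed neither, 8 of 20 listed genes stood at least 3-fold higher, against 3.42% of genes, with a median ratio of 1.76 beside 0.88. The other libraries had 4 to 11 such nuclei, in which 6.33 to 16.4% of all genes and 1 of 10 to 7 of 16 listed genes stood at least 3-fold higher. A single library carries this description, and nothing in it was tested.

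**Figure D5:**
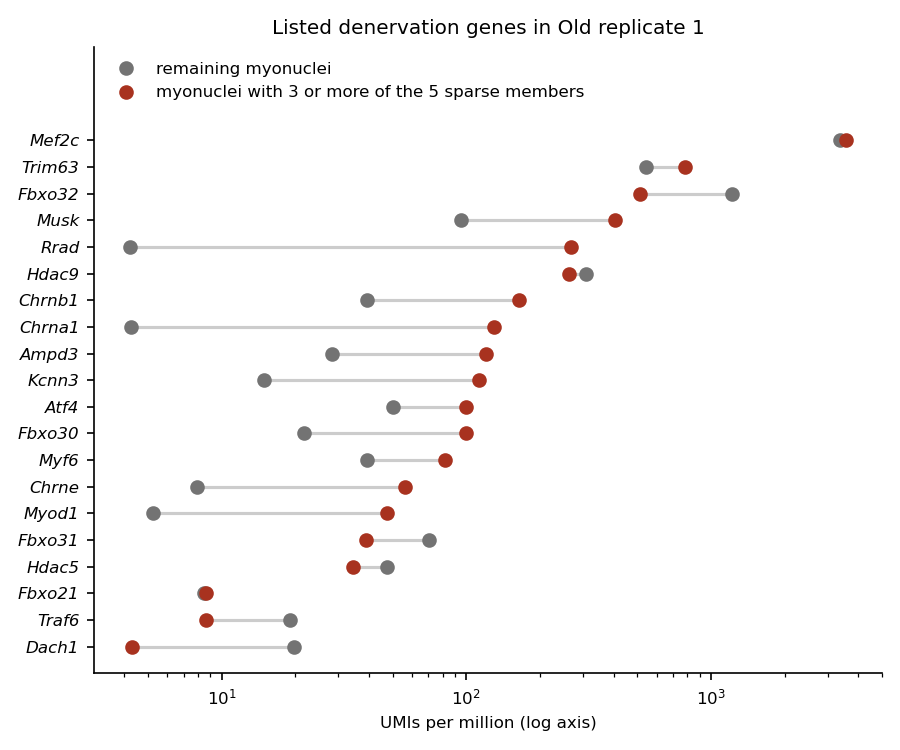
Level of the 20 listed denervation genes with at least 100 UMIs in the remaining myonuclei of Old replicate 1, in CPM on a log axis, in the 25 myonuclei with at least 3 of the 5 sparse genes (red) and in the remaining myonuclei (grey), with a line joining the 2 values of a gene. For 9 genes the red point lies at least 3-fold to the right, among them Rrad (268 against 4.22) and Chrna1 (130 against 4.26), while Fbxo32 lies to the left (514 against 1217).

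Over the 11 nucleus classes with at least 20 nuclei in every 10x library, the genes whose mean log2 CPM ran most like that of each of the 6 were found among 6695 genes. For Runx1 they were Arhgap39 (Pearson r 0.97), Spire1 (0.94) and Stip1 (0.92), for Ncam1 Col19a1 (0.96), Hs6st2 (0.93) and Ccdc167 (0.88), and for Hdac4 Usp28 (0.98), Macrod1 (0.98) and Jpx (0.97). For Dach2 they were Zfp52 (0.93), Tmem161b (0.92) and Dlst (0.92), for Myog Fmnl2 (0.91), Azin1 (0.88) and Hivep2 (0.87), and for Gadd45a Maco1 (0.93), Ap3s2 (0.92) and Iars2 (0.92). These are correlations across classes that share libraries and depth, and are descriptions only.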

How the data were processed

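Single nuclei of mouse gastrocnemius were counted in 8 libraries. The values deposited by the authors are raw UMI counts for every gene in every nucleus. Reads were aligned to mm10, with Cell Ranger 6.1.2 for the 10x libraries and with PISA for the second set, and the submitters' processing notes also name Seurat 4.1.1. Whether intronic reads were counted is not given in the sources used here. The 6 genes, the gene lists and the tests were chosen with earlier results of these data known.

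Retained nuclei (64803 of 65280) had over 200 genes, under 6000 genes and under 6% mitochondrial UMIs. Doublets stayed in. UMIs were summed per library over myonuclei, all retained nuclei or a class, for classes of at least 20 nuclei. The sums were analysed in R 4.3.3 by the quasi-likelihood test of edgeR 4.0.16 (TMM scaling, filterByExpr, Benjamini-Hochberg adjustment over all genes tested). Group fits held group and library set as terms, and class fits held the library as a block. Tests excluded 12 mitochondrial and 98 ribosomal protein genes. SE is the log2 difference divided by the square root of F. A gene was called at an adjusted p under 0.05. Marker gates needed at least 3 UMIs from at least 2 genes of a list, with every other list well below that sum. The 2 markers Kera and Sox10 were not named in every library and were used in none. Shares were compared after thinning each nucleus to 500 or 1000 UMIs (seed 1), with 95% Wilson intervals. The tests were checked on simulated counts. CPM are UMIs per 1000000 UMIs of a sum, over the symbols named in every library. Gene positions are from GENCODE M21.

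Genes named are the 6, the listed genes that passed (at most 8 per comparison by smallest p, or the 3 with the smallest p where none passed), the 3 genes most like each of the 6 (mean log2 CPM of at least 4) and markers. A gene that the rule would name is not reported here. The alternatives were DESeq2 1.42.0, unfiltered counts, a fit without the library set, only the libraries of a comparison, the 10x libraries alone, myosin limits of 2 and 10 UMIs, a dominance of 80%, a junction gate of 5 UMIs, thinning and leaving out each library. Further ones (Type IIb myonuclei only, myonuclei passing no other gate, and fibre types without junction-like nuclei) were added after the data were seen. An exact permutation test of 2 against 2 libraries cannot go below a two-sided p of 0.333, so none was run.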

Additional observations from a re-analysis of the deposited data

How the results depend on the processing

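Replicate numbers follow the order of deposition, and the labels do not say that they pair animals, so the replicate block is the library set. Without it, no member was called in any group comparison, as with it, and Gadd45a in myonuclei moved to -0.36 in Old against Young and -0.37 in Running against Sedentary, from 0.01 and 0.08. Gadd45a lay near 0 and changed sign easily. In Old against Young myonuclei it was -0.036 without a filter on low counts and -0.0093 at 500 UMIs per nucleus, in Running against Sedentary -0.057 with a myosin limit of 2 UMIs, and in whole libraries, Old against Young, 0.11 with only the 4 libraries compared. Runx1 in Type IIx myonuclei was -0.61 at 500 UMIs per nucleus. The cause was not tested. In myonuclei against other nuclei, DESeq2 moved the median of all genes, as given with that comparison.

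Without 1 library at a time, Old against Young in myonuclei ran from -0.65 to 0.80 for Gadd45a and from -1.67 to 1.11 for Myog, and Running against Sedentary from -0.83 to 0.85 for Gadd45a, -0.43 to 0.068 for Hdac4, -1.60 to 0.80 for Dach2 and -1.62 to 0.95 for Myog. In whole libraries Old against Young ran from -0.13 to 0.41 for Ncam1, -0.82 to 0.92 for Gadd45a and -1.58 to 0.86 for Myog, and Running against Sedentary from -1.08 to 0.38 for Gadd45a, -0.23 to 0.024 for Hdac4, -1.83 to 0.86 for Dach2 and -1.53 to 0.83 for Myog. Runx1 at the junction ran from -0.27 to 0.89. Runx1 (0.66 to 1.01), Ncam1 (0.47 to 0.74), Dach2 (0.59 to 2.19) and Hdac4 (-1.08 to -0.59) kept their direction in Old against Young myonuclei in each such fit.

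The number of genes called in Old against Young myonuclei was 0, and 1 with DESeq2, 5 with only the 4 libraries compared and 0 to 5 without 1 library. In Running against Sedentary it was 0, and 0 to 40 without 1 library. In whole libraries it was 0, and 4 with only the 4 libraries compared and 0 to 8 without 1 library for Old against Young, and 82 and 0 to 418 for Running against Sedentary, where 418 came without Sedentary replicate 2. No member was called in any of these. At the junction 1745 genes were called, and 1043 with DESeq2, and the members called went from 1 to 2 without a filter on low counts and at 500 UMIs per nucleus, and were 1 to 2 without 1 library. For Type IIx 1742 genes were called, 2665 at a dominance of 80% and 1144 to 2421 without 1 library, with 1 member called and 2 with the 10x libraries alone. For slow myonuclei 2414 were called, and 1468 to 3071 without 1 library. Type IIa had 3 members called, and 1 at 500 UMIs per nucleus. Ncam1 at the junction and Dach2 in Type IIx, Type IIa and slow myonuclei passed under every alternative run. At the spread of these libraries, differences of 4-fold or less between groups were mostly not detectable.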
